A study of Mus musculus with 6 samples.

Results

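The small leucine-rich proteoglycans were followed in mouse back skin with and without repeated exposure to ultraviolet B light (UVB). The family was taken as 9 genes (Dcn, Lum, Bgn, Fmod, Ogn, Omd, Prelp, Podn and Aspn), found by their symbols among the array's probes. Each had 1 probe, and 7 of the 9 gave enough signal to be tested, out of 24349 genes tested on the arrays. The mice were male C57BL/6 animals aged 6 to 8 weeks, and the backs of all 6 were shaved. The 3 UVB mice received 180 mJ/cm2 in each of 3 sessions a week for 2 weeks, beginning 2 days after shaving, and the 3 control mice were kept in the dark. How long after the last exposure the skin was taken is not stated in the labels. Each animal's RNA went onto its own 1-colour Agilent array, so each group has n = 3 separate animals. The comparison asks whether transcripts of these matrix proteins differ between exposed and unexposed skin.

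Small leucine-rich proteoglycans are secreted proteins with a core of leucine-rich repeats, and most carry chondroitin, dermatan or keratan sulfate chains. They bind to the surface of collagen fibrils, where they limit or steer the lateral growth of the fibrils, and in the dermis they are made mainly by fibroblasts. Several also bind growth factors of the TGF-beta family, receptor kinases or Toll-like receptors. The family is divided into classes by sequence: Dcn, Bgn and Aspn belong to class I, Lum, Fmod, Prelp and Omd to class II, Ogn to class III and Podn to class V.

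The array reads each gene through a single stretch of 60 bases, so each value below is the signal of that stretch alone. Probes for the class I genes Dcn and Bgn are shown because they lie over coding sequence and because the close kinship of these genes makes it worth seeing that the probes differ. In the decorin probe the capitals mark the stop codon, at bases 55 to 57 from its 5′ end. The biglycan probe has no capitals.

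Dcn: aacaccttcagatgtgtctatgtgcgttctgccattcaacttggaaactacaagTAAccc

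Bgn: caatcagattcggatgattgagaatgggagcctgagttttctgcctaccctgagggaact

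Per the files, in build mm9, the Dcn probe covers chr10:96980233-96980292 and the Bgn probe chrX:70738554-70738613, both on the plus strand. The 2 core proteins are close relatives, yet no 2 member probes shared a run of more than 8 bases, and none of 55672 other probes shared a run of 20 bases with any member's probe. The GC content of the 9 probes ranged from 35% to 48.3%.

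All values by array are given as log2 of the processed spot signal minus the 75th percentile of that array, called scaled log2 signal here, in the order of replicates 1, 2 and 3. A difference of 1 is a 2-fold difference in signal. Levels can be set side by side between arrays for one probe, not between probes. Fold changes, standard errors (SE) and p-values come from limma fitted across all genes, with Benjamini-Hochberg adjustment and a threshold of 0.05. In bulk skin, fewer cells of a type and less RNA per cell cannot be told apart.

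None of the 7 tested members passed the threshold after UVB by limma, in either direction. Across the array the background was 12.6% of genes called (5.54% higher and 7.01% lower). At an unadjusted p under 0.05, 2 members passed, Lum and Podn, against 31.5% of all genes. The same 2 were the members whose groups did not overlap, against 38.5% of all genes. Lum was higher after UVB, as were 15.9% of all genes without overlap, and Podn lower, as were 22.6%. The fitted change was higher after UVB for 4 members (Lum, Ogn, Bgn and Dcn) and lower for 3 (Podn, Fmod and Aspn). Their median log2 fold change was 0.47, beside -0.04 over all genes. The SE of every tested member (0.30 to 0.82) exceeded the median SE of all genes, 0.175, and the 95% intervals of 5 of the 7 included 0.

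**Figure D1:**
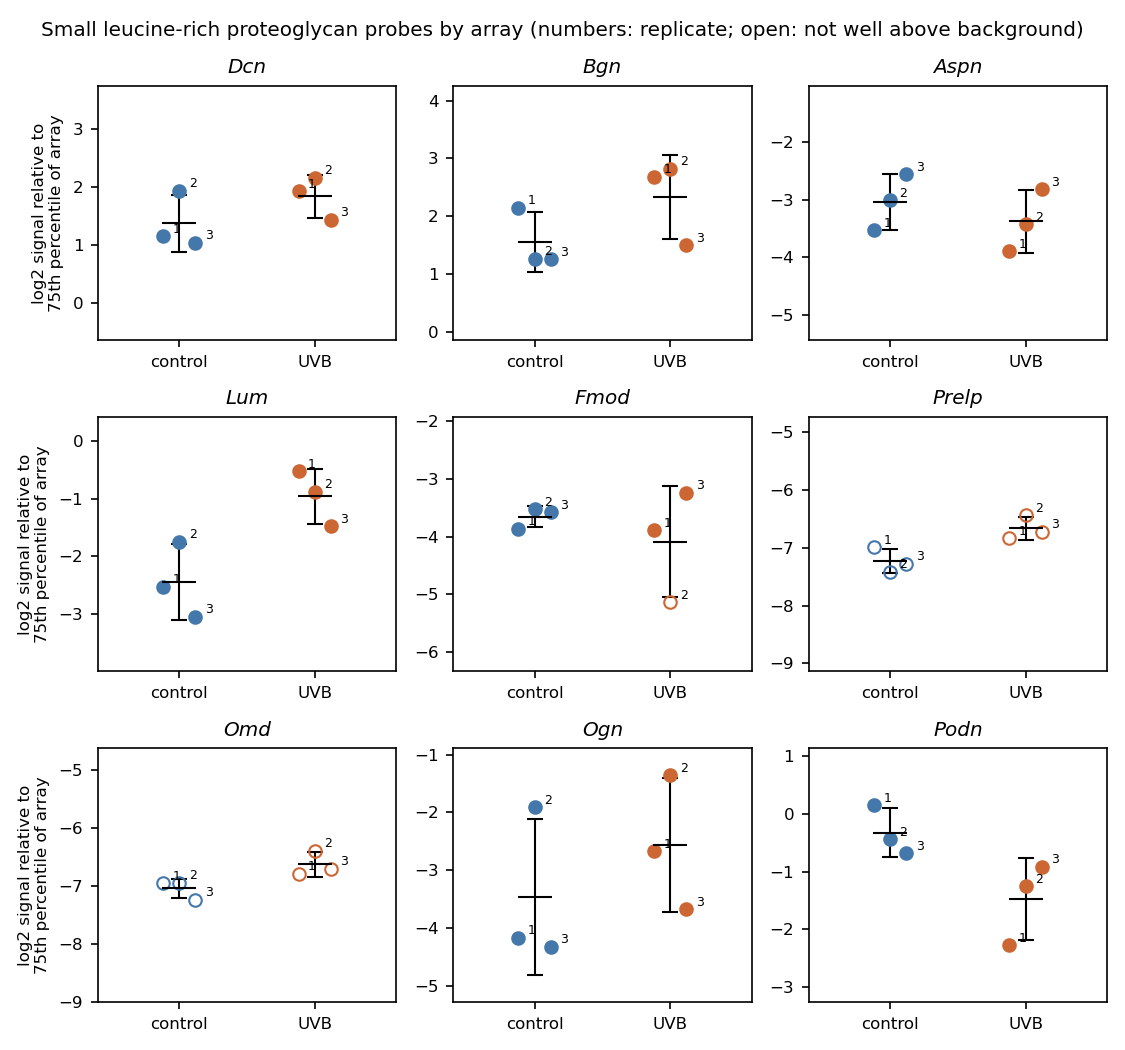
Scaled log2 signal of the 9 family members (vertical axis; each panel spans the same height) in control and UVB mice, with the mean ± SD of n = 3 and each replicate by number. Only Lum and Podn among the members above background had groups that did not overlap, and the Omd and Prelp probes stayed at background on all arrays (open points).

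Lum encodes lumican, a class II member that regulates the assembly and spacing of collagen fibrils. Its scaled log2 signal was -2.52, -1.75 and -3.05 in controls and -0.53, -0.88 and -1.48 after UVB. Each UVB mouse was thus above each control mouse, although the lowest UVB mouse (-1.48) came close to the highest control (-1.75). The fitted change was a log2 fold change of 1.47 ± 0.39 (SE, 95% interval 0.54 to 2.41), or 2.78-fold higher. Its limma adjusted p was 0.0561, just short of the threshold. The call therefore turned on the processing: adjusted p was 0.0163 with normexp background correction, where the change was 1.04. It was 0.0392 when probes had to be above background on all 6 arrays, and 0.0299 with a trended and robust variance. Every other setting on all 6 arrays left it short of the threshold, from 0.0545 (mean of the gene's probes) to 0.0678 (deposited values). It ranged from 0.0537 to 0.147 when 1 array was left out, with changes of 1.17 to 1.82.

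Podn encodes podocan, the class V member, a collagen-binding protein studied mainly in vascular smooth muscle. The Podn probe read 0.15, -0.44 and -0.68 (scaled log2 signal) in controls and -2.27, -1.25 and -0.91 after UVB. All 3 UVB mice lay below all 3 controls, with UVB mouse 1 farthest down. The fitted log2 fold change was -1.16 ± 0.39 (SE, 95% interval -2.11 to -0.21), 2.23-fold lower, with a limma adjusted p of 0.104. Limma array weights brought it past the threshold, at a log2 fold change of -1.34 and an adjusted p of 0.0474. Without UVB replicate 1 the change was -0.76, and with any other array left out it stayed between -1.44 and -0.92.

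RefSeq lists 2 starts for Podn, and a single probe does not tell transcripts of the 2 starts apart. The 250 bases before each start are shown because Podn was the member with the lowest fitted change and because the 2 windows differ in composition. Capitals mark GGGCGG, the core of the GC box bound by Sp1, searched on both strands. The first window is chr4:108031955-108032204 and the second chr4:108030987-108031236, both read on the minus strand in GRCm38.p6, a build other than that of the probe positions.

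Podn start 1: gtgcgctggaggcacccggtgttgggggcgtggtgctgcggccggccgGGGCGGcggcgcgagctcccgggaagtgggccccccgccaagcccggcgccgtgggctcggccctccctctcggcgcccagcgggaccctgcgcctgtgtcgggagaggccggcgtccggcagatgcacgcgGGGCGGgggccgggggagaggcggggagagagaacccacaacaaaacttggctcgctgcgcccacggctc

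Podn start 2: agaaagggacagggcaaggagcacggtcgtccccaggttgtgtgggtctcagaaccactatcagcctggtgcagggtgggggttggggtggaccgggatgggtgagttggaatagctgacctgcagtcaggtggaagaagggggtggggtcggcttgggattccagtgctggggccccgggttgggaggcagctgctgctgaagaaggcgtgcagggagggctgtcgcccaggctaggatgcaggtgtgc

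The first window had a GC content of 78%, 32 CpG sites and 2 copies of GGGCGG, and the second had 64%, 7 CpG sites and 0 copies. Over 32851 RefSeq windows of the same length, the median was 52.4% GC and 6 CpG sites, and 32.7% of windows held GGGCGG. Of the 9 members, 7 had such windows, and their GC content ran from 30% (Aspn) to 78% (the first Podn window). Bgn held 3 copies of GGGCGG at 64.4% GC, while Aspn and Ogn, which flank Omd on chromosome 13, each held 2 copies of the TATA box sequence TATAAA, which occurred in 12.4% of all windows. The AP-1 sequence TGANTCA was in 0 of the 8 member windows, against 6.75% of all windows.

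Dcn encodes decorin, the proteoglycan that coats collagen fibrils of the dermis and binds TGF-beta. On the scaled log2 scale it stood at 1.16, 1.94 and 1.04 in controls and 1.93, 2.16 and 1.43 after UVB. Control mouse 2 lay above UVB mice 1 and 3, so the groups overlapped. The log2 fold change was 0.47 ± 0.30 (SE, 95% interval -0.26 to 1.19), with a limma adjusted p of 0.337. With 1 array left out it ranged from 0.30 (without control replicate 3) to 0.75 (without control replicate 2). The interval leaves room for up to 1.19 log2 units higher but for no more than 0.26 lower.

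Bgn encodes biglycan, the closest relative of decorin, which can also act on Toll-like receptors when released from the matrix. Scaled log2 signals were 2.15, 1.27 and 1.25 in controls and 2.68, 2.82 and 1.50 after UVB. UVB mice 1 and 2 were above all controls and UVB mouse 3 was not. The log2 fold change was 0.78 ± 0.42 (SE, 95% interval -0.24 to 1.79), with a limma adjusted p of 0.259. With 1 array left out it ranged from 0.53 (without UVB replicate 2) to 1.20 (without UVB replicate 3).

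Aspn encodes asporin, a class I member without sugar chains that competes with decorin for collagen and inhibits TGF-beta. The Aspn probe read -3.53, -3.02 and -2.57 (scaled log2 signal) in controls and -3.89, -3.43 and -2.82 after UVB. The 2 sets of values were interleaved. The log2 fold change was -0.34 ± 0.35 (SE, 95% interval -1.18 to 0.50), limma adjusted p 0.545, and turned to 0.10 with normexp background correction. It ranged from -0.62 without UVB replicate 3 to -0.086 without UVB replicate 1.

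Fmod encodes fibromodulin, a class II member that binds collagen I near the site of lumican and guides its crosslinking. Control mice were at -3.86, -3.53 and -3.57 on the scaled log2 scale and UVB mice at -3.89, -5.13 and -3.24. The spot of UVB mouse 2 was not well above background, and leaving it out turned the sign. The log2 fold change was -0.43 ± 0.46 (SE, limma adjusted p 0.564) over all arrays and 0.09 without UVB replicate 2. It was 0.16 with normexp background correction.

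Ogn encodes osteoglycin (mimecan), the class III member, a keratan sulfate proteoglycan of connective tissue. Its scaled log2 signal was -4.17, -1.91 and -4.32 in controls and -2.67, -1.35 and -3.67 after UVB. Replicates differed by 2.41 log2 units within the controls and by 2.32 within the UVB mice, more than the fitted difference between groups. That difference was 0.90 ± 0.82 (SE, 95% interval -1.09 to 2.89), with a limma adjusted p of 0.501. It ranged from 0.29 without UVB replicate 2 to 1.68 without control replicate 2, and was 0.39 with array weights.

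The class II genes Prelp, a heparin-binding member, and Omd, a member best known from bone, were not well above background on any of the 6 arrays and were not tested. Unscaled signals of the Prelp probe were 2.85, 3.05 and 3.13 in controls and 3.09, 3.63 and 2.86 after UVB. Those of the Omd probe were 2.94, 4.23 and 3.21 in controls and 3.18, 3.75 and 2.90 after UVB. The files list the Prelp probe under a cDNA record, and whether it covers the RefSeq transcript was not checked.

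**Figure D2:**
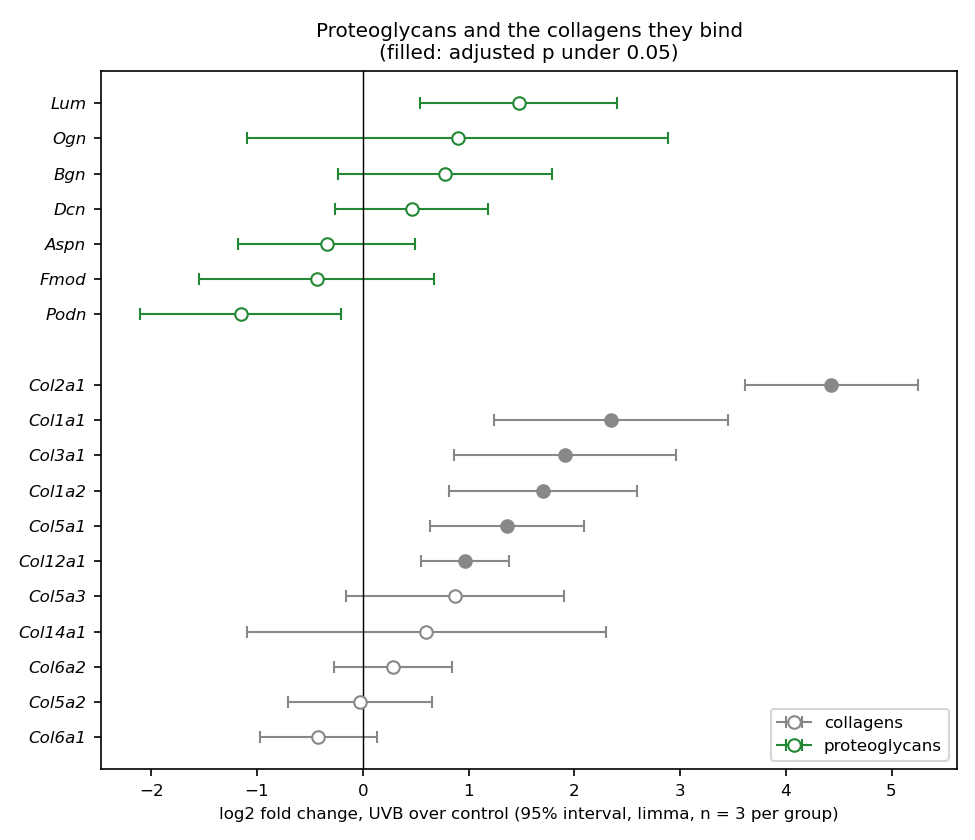
Log2 fold change, UVB over control, with 95% limma intervals (horizontal axis, n = 3 per group) for the 7 tested family members and 11 collagens. Filled points passed the adjusted threshold, which 6 collagens and no proteoglycan did; Lum at 1.47 and Podn at -1.16 were the members whose intervals did not include 0.

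The spread within groups followed a like order of mice in several members. For Dcn, Lum and Ogn, control mouse 2 was the highest control and UVB mouse 3 the lowest UVB mouse. The same order held for 11.8% of all genes, and the 3 members were singled out after their values were seen. Control mouse 2 stood above its group mean by 0.56 for Dcn, 0.69 for Lum and 1.56 for Ogn, on the log2 scale. UVB mouse 3 stood at -0.41, -0.51 and -1.10 from its group mean for the same genes. Bgn shared the low value of UVB mouse 3, at -0.84, but not the high value of control mouse 2, at -0.29. Aspn, Fmod and Podn did not follow this order: UVB mouse 3 was their highest UVB mouse, at 0.56, 0.85 and 0.57 from the group mean. The lowest UVB mouse was mouse 1 for Aspn (-0.51) and Podn (-0.79) and mouse 2 for Fmod (-1.04).

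Other dermal matrix genes, picked because they were like Ogn over the arrays, had control mouse 2 and UVB mouse 2 as the highest of their groups, as Ogn did. Not every gene so like Ogn was picked. Loxl1 (Pearson r with Ogn 0.94) had the same highest mice. Prrx1 (0.90, above Col14a1 at 0.85) had UVB mouse 1 as its highest UVB mouse. The share of all genes with these highest mice was not counted. Mfap5, a microfibril protein of fibroblasts, was at -3.33, -1.77 and -4.02 in controls and -2.92, -1.78 and -3.76 after UVB. Pi16, a marker of adventitial fibroblasts, was at -1.51, -0.42 and -1.84 in controls and -1.27, 0.03 and -1.17 after UVB. Their log2 fold changes were 0.22 ± 0.70 for Mfap5 and 0.45 ± 0.49 for Pi16 (SE), and neither passed the limma threshold. Dpt (dermatopontin, which binds decorin) and the fibril-associated collagen Col14a1 had control mouse 2 highest too, with deviations of 1.28 and 1.34. Dpt was well above background on 1 control array and 2 UVB arrays, and Col14a1 on 2 of each. The other order, that of Dcn, Lum and Ogn with control mouse 2 highest and UVB mouse 3 lowest, was not particular to dermal genes. The skeletal muscle markers Acta1, Myh4 and Tnnt3 also had control mouse 2 highest and UVB mouse 3 lowest. Their deviations from the group means had a Pearson r with those of Lum of 0.91, 0.93 and 0.87. Myh2 (0.33) had control mouse 2 highest but UVB mouse 3 highest too. What set either order was not tested.

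**Figure D3:**
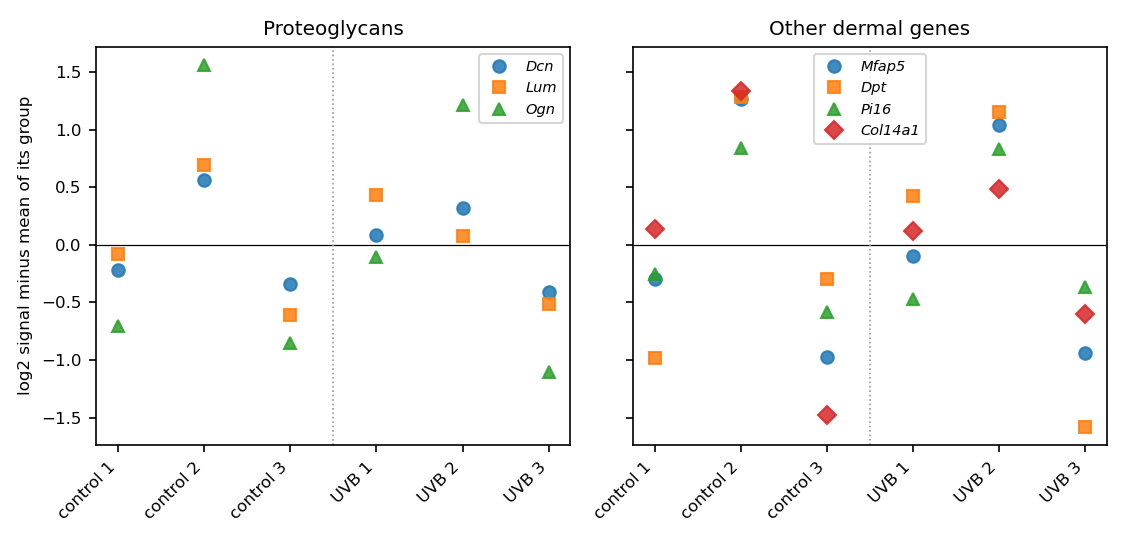
Deviation of the scaled log2 signal from the mean of the mouse's own group (vertical axis) for 3 proteoglycans (left) and 4 other dermal genes (right), by array; the dotted line separates the groups. Control mouse 2 was above its group mean for all 7 genes (0.56 to 1.56), and UVB mouse 3 was below it for all 7. All 7 were picked after their values were seen, the right-hand 4 for likeness to Ogn, so their agreement is no test.

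As a description over the 6 arrays, among 15918 named genes, Dcn was one of the 2 genes nearest to Ogn (Pearson r 0.97), the other being Cpsf2 (0.97). The nearest genes were Gbp7 and Bdh2 for Dcn (both 0.98), Ccdc84 (0.998) and Sec16b (0.991) for Lum, and Pygm (0.996) and Prpmp5 (0.995) for Bgn. For Podn they were Id1 (0.996) and Serpina3g (0.992), for Aspn Atp12a (0.99) and Gas7 (0.989), and for Fmod Morn3 (0.99) and Panct2 (0.982). Over only 6 arrays, each of the 7 tested members had a nearest gene at 0.97 or more.

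The 2 nearest annotated genes on each side of every member gave 20 neighbours outside the family, of which 15 were tested. By limma 0 rose and 2 fell, against 5.54% and 7.01% of all genes. Dcn and Lum probes lie 54.9 kb apart on chromosome 10, and their log2 fold changes were 0.47 and 1.47. The chromosome 13 cluster holds Aspn, Omd and Ogn, with Omd 25.3 kb from Aspn and 31.6 kb from Ogn. There Aspn was at -0.34, Ogn at 0.90 and the adjoining Ecm2, a related leucine-rich matrix gene, at 0.32, none past the threshold. Those that fell were Cenpp, a centromere protein gene beside that cluster, at -0.69 (log2 fold change, adjusted p 0.0252 by limma), and Dusp9, a phosphatase gene near Bgn, at -1.75 (adjusted p 0.0362 by limma). Of the other tested genes near Bgn, Trex2 was at 1.13 and Haus7 at -0.38. Genes near Podn were at -0.17 (Cpt2), 0.09 (Slc1a7), -0.25 (Scp2) and -0.38 (Echdc2), none past the threshold. Fmod and Prelp probes lie 137.1 kb apart on chromosome 1.

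Among 9 further genes of the wider family, 5 were tested and 0 passed the limma threshold. Groups did not overlap for 1 of them, against 38.5% of all genes. Chad (chondroadherin) had a log2 fold change of 0.83 ± 0.40, Chadl -0.67 ± 0.23, Ecm2 0.32 ± 0.23, Nyx (nyctalopin) 0.30 ± 0.12 and Tsku (tsukushi, a BMP and Wnt inhibitor) 0.12 ± 0.18 (SE). Chadl had 2 tested probes of opposite sign: the mean of its probes gave -0.10, while array weights gave -0.79 (limma adjusted p 0.0442) and normexp -0.53 (limma adjusted p 0.0495). The gene without overlap was Nyx, higher after UVB, with an adjusted p of 0.151. Kera, Epyc, Optc and Podnl1 were not tested for lack of signal.

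The collagens that these proteoglycans coat held 6 called genes where the proteoglycans held none, a difference between lists that was not tested. Of 12 fibrillar and associated collagens, 11 were tested, 6 rose after UVB and 0 fell (5.54% and 7.01% of all genes). The median log2 fold change was 0.97, beside -0.04 over all genes. Col1a1, a chain of collagen I, rose by 2.35 ± 0.46 (SE, limma adjusted p 0.0262), from -0.50, 0.43 and -1.32 in controls to 2.36, 1.51 and 1.79 after UVB. Its partner chain Col1a2 rose by 1.70 ± 0.37 (adjusted p 0.0337 by limma). Control mouse 2 was again the highest control for Col1a1.

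Col3a1 rose by 1.91 ± 0.43, Col5a1, a chain of the collagen that nucleates fibrils, by 1.37 ± 0.30 and the fibril-associated Col12a1 by 0.97 ± 0.17 (SE). The collagen II gene Col2a1 was not well above background in any control. In the main setting it was at least 12.4-fold higher after UVB, with a limma adjusted p of 0.00258. Over 10 other settings its log2 fold change ran from 1.81 to 4.43. Col5a2 at -0.03, Col6a1 at -0.42 and Col6a2 at 0.29 did not pass. The count of 6 was sensitive to single arrays. It was 1 without control replicate 1, 5 without control replicate 2, 2 without control replicate 3, 1 without UVB replicate 1, and 2 without either UVB replicate 2 or 3.

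Enzymes that build the chondroitin and dermatan sulfate chains were mostly fitted lower, yet 1 passed. Of 21 such genes 19 were tested, 17 had a negative log2 fold change, and the median was -0.32 beside -0.04 over all genes. Across the array 7.01% of genes were called lower. Groups did not overlap for 10 of the 19, against 38.5% of all genes. Ust, the uronyl 2-sulfotransferase that acts on dermatan sulfate, fell, with a log2 fold change of -0.78 ± 0.16 (SE) and an adjusted p of 0.0289 by limma. The Ust call was lost with every array left out except UVB replicate 3 (limma adjusted p 0.0401 to 0.0864 over the 6). Other settings called up to 4 genes of this list lower. Xylt2, which attaches the first sugar to the core protein, had a log2 fold change of -0.69 ± 0.19 and Chsy1, a chondroitin synthase, -0.60 ± 0.16, neither past the threshold. Dse, the epimerase that turns chondroitin into dermatan, was fitted higher at 0.45 ± 0.17 and did not pass. Of 8 keratan sulfate genes 4 were tested, 0 passed, 1 had groups that did not overlap (38.5% of all genes), and the median was -0.22.

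A list of 13 genes held proteases that act on these proteoglycans or on procollagen, and Pcolce, which aids procollagen cleavage but is no protease. Of the 13, 11 were tested, 3 rose and 1 fell (5.54% and 7.01% of all genes). Adamts1 and Adamts5, metalloproteases that cut aggregating proteoglycans, rose by 0.92 ± 0.12 (limma adjusted p 0.00922) and 1.16 ± 0.27 (0.0427). Gzmb, granzyme B, a serine protease that can cut decorin and biglycan, rose by 1.00 ± 0.22 (SE, limma adjusted p 0.0366). The Adamts5 call was not stable: its limma adjusted p ran from 0.00689 to 0.131 over 10 other settings, with changes of 0.60 to 2.09, and reached 0.120 with 1 array left out. Mmp3, stromelysin 1, fell, with a log2 fold change of -1.88 ± 0.42 (SE) and an adjusted p of 0.0375 by limma. Bmp1, which removes the propeptide of decorin and biglycan, was fitted at 0.48 ± 0.20 (log2, SE), short of the threshold. The count of 3 higher became 2 without control replicate 1 and also without UVB replicate 3, and 1 when any other array was left out. With 1 array left out, the 1 lower call held only without control replicate 3.

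Of 24 growth factors and receptors that bind family members, 21 were tested, 2 fell and 0 rose (7.01% and 5.54% of all genes). The median was -0.05. Tgfb1, the ligand bound by decorin, biglycan, asporin and fibromodulin, fell, at -0.96 ± 0.16 (log2 fold change, SE) with an adjusted p of 0.0159 by limma. Itga2, the collagen-binding integrin alpha 2 chain, fell too, at -1.12 ± 0.22 (adjusted p 0.0252 by limma). Itga2 was at -0.15 with normexp background correction (limma adjusted p 0.372). The count of 2 was 0 without control replicate 2 or UVB replicate 1, 1 without control replicate 1 or UVB replicate 2, and 2 without either other array. Egfr and Tlr2, receptors for decorin and biglycan, were at 0.16 ± 0.12 and 0.30 ± 0.20, and neither passed.

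Of 13 crosslinking enzymes and other fibril partners 8 were tested, 3 fell and 0 rose (7.01% and 5.54% of all genes). The median was -0.28. The matricellular thrombospondin Thbs2 had a log2 fold change of -2.37 ± 0.23 and its relative Thbs1 one of -2.06 ± 0.39 (SE, limma adjusted p 0.00422 and 0.0233). Tnxb, tenascin X, which bridges fibrils through decorin, was at -1.92 ± 0.24 (limma adjusted p 0.00749). The count of 3 was 2 without control replicate 1, UVB replicate 1 or UVB replicate 2. Lox, the main lysyl oxidase, was not above background. Among 15 other proteoglycans, all tested, 1 fell and 0 rose (7.01% and 5.54% of all genes), and the median was -0.21. The gene that fell was the glypican Gpc3, at -1.56 ± 0.23 (log2 fold change, SE), adjusted p 0.0130 by limma.

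Genes taken as fibroblast markers did not move together, and whether their signal came from fibroblasts was not tested. Of 14 fibroblast markers 12 were tested, 3 rose (Dpp4, Fbln1 and Twist2) and 1 fell (Thy1), against 5.54% and 7.01% of all genes. The fitted change was higher for 8, and the median log2 fold change was 0.22. The count of 3 was 0 without control replicate 2 or UVB replicate 1, 1 without control replicate 1 or 3 or UVB replicate 2, and 3 without UVB replicate 3. Their summed scaled signal, a sum of ratios to the 75th percentile, was 119 to 126 in controls and 56.1 to 88.0 after UVB. That sum was carried by the probes of S100a4, Thy1 and Vim, all fitted lower. Without these 3 it was 10.2 to 12.5 in controls and 9.42 to 11.8 after UVB. Thy1 had a log2 fold change of -1.85 ± 0.12 (SE) and an adjusted p of 0.00234 by limma. The defining receptors Pdgfra and Pdgfrb were below the detection needed for a test: Pdgfra was well above background on 0 arrays and Pdgfrb on 1. All 6 hair follicle markers rose (5.54% of all genes did). Their summed scaled signal was 1.03 to 2.45 in controls and 257 to 1008 after UVB. Of 5 keratinocyte markers 0 passed, and 3 had groups that did not overlap, against 38.5% of all genes. The keratinocyte sum was 1821 to 2147 in controls and 2303 to 2731 after UVB. Its genes did not all go 1 way. Krt1 (log2 fold change 1.13), Krt10 (0.42) and Krt5 (0.10) were fitted higher, and Krt14 (-0.30) and Epcam (-0.25) lower.

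The other marker lists held few tested genes. For comparison, 5.54% of all genes were called higher and 7.01% lower. Of 6 skeletal muscle markers 4 were tested and 0 passed (summed scaled signal 0.380 to 1.82 and 0.223 to 0.620). All 4 were fitted lower after UVB, with a median log2 fold change of -1.19, while Lum was at 1.47. Of 5 cartilage, tendon and bone markers 3 were tested and 0 passed or had separate groups. Adipocyte markers had 1 of 4 tested higher (Fabp4). The others tested were at 0.55 (Lep), -0.99 (Cfd) and -0.11 (Retn), none past the threshold. Adipoq and Plin1 were not tested: they were well above background on 2 and 1 control arrays and on 0 UVB arrays. Macrophage markers had 1 of 4 higher (Lyz2) and 2 lower (Adgre1 and Csf1r). Schwann cell markers had 1 of 4 higher (Sox10) and 1 lower (Mbp). With 1 array left out, limma adjusted p reached 0.122 for Sox10 (lowest 0.0501), 0.120 for Lyz2, 0.107 for Mbp and 0.0549 for Fabp4. It stayed at 0.0159 or less for Adgre1 and 0.0322 or less for Csf1r. Endothelial markers had 1 of 2 tested lower (Lyve1, at least 1.78-fold lower in the main setting), and Cdh5, Tie1 and Emcn were not tested for lack of signal. Over 10 other settings the log2 fold change of Lyve1 ran from -2.31 to -0.18, with a limma adjusted p of up to 0.323. Pericyte and smooth muscle markers had 0 of 2 passing and 2 without overlap. Over all genes, 38.5% had groups that did not overlap. The part of any of these cell types in the proteoglycan values was not tested.

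The 6 arrays lay on 1 slide. Between 54.9% and 63.3% of spots were well above background, 0 were saturated, and the 75th percentile of the signal was 363 to 519 on control arrays and 302 to 352 on UVB arrays. The file headers place all controls and UVB mouse 1 at positions whose first number is 1 and the other UVB mice at 2. Within position number 1, where UVB mouse 1 stands alone and its spread is taken from the controls, the log2 fold change was 1.91 for Lum and -1.95 for Podn (limma adjusted p 0.173 and 0.103).

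**Figure D4:**
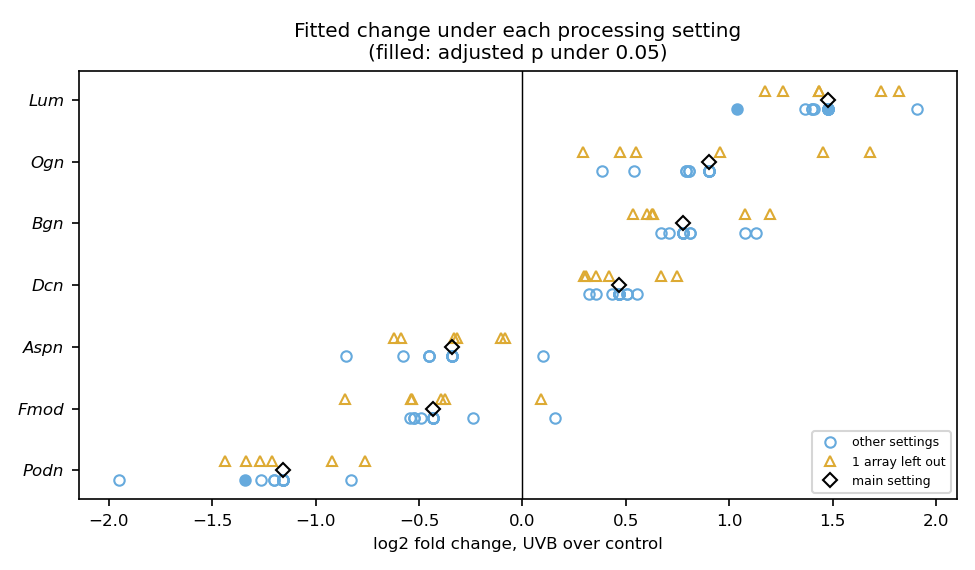
Fitted log2 fold change, UVB over control (horizontal axis), of the 7 tested family members under the main setting (diamonds), other processing settings (circles) and with 1 array left out (triangles). Filled points passed the adjusted threshold, which happened for Lum (1.04 to 1.47) and for Podn with array weights (-1.34) and for no other member; Aspn and Fmod are the members with points on both sides of 0.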

How the data were processed

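RNA of back skin from 6 mice was labelled with Cy3 (0.2 µg of RNA, per the labels) and hybridised to 1-colour arrays. The authors deposited each array's spot intensity, extracted with Agilent Feature Extraction 10.7.1.1 per the file headers, and a table of log2 values whose making no label or header states. Groups and replicate numbers come from the sample titles, and the labels give 3 mice a group.

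Each array's 75th percentile was subtracted from log2 of the processed intensity. Control and outlier-flagged spots (135 to 274 per array) were left out. Probes well above background on at least 3 arrays were tested, and each gene stands by its brightest tested probe. Groups were compared with limma 3.58.1 in R 4.3.3 (lmFit, eBayes, two-sided), and the steps were tested on simulated data. Where a whole group was below background, the fold is a bound, from the lowest signal well above background. Promoter windows and names come from RefSeq tables of GRCm38.p6. The number of arrays limits the precision.

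The members and lists were chosen with earlier results of these data known. The rule named all members, up to 4 passing genes of smallest p per list, tested wider-family genes and the 2 nearest genes of each member. Further genes were picked with their values in view. Alternatives were other scalings, normexp (offset 50), the deposited log2 values, other filters, probe choices, variance models, array weights, a replicate block and leaving out arrays. Over 24326 genes, same-numbered mice did not deviate together (r -0.108, -0.262 and -0.0792), so numbers were not taken as pairs. In Ogn and Aspn the deviations of same-numbered mice did run alike.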

Additional observations from a re-analysis of the deposited data

How the results depend on the processing

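Of the 7 tested members, Lum, Ogn, Bgn, Dcn and Podn kept their direction under every alternative run. The number of members called higher was 1 (Lum) with normexp, with the filter on all 6 arrays and with a trended and robust variance, and the number called lower was 1 (Podn) with array weights. Lum then had log2 fold changes of 1.04, 1.47 and 1.47, and Podn -1.34. Reversed values were Aspn 0.10, Fmod 0.16 and Col5a2 0.29 with normexp, Mfap5 -0.17 with array weights and Col14a1 -0.15 with the mean of its probes. Leaving out 1 array turned Fmod (-0.86 to 0.087), Col5a2 (-0.24 to 0.20), Col14a1 (-0.14 to 1.27) and Mfap5 (-0.30 to 0.86). With the replicate number as a block, a pairing not borne out over all genes, 470 genes were higher and 300 lower. In that setting 1 collagen rose and 0 members were called (Lum adjusted p 0.0676 by limma). The block lowered the SE of every tested member but Podn, where it rose from 0.39 to 0.46. For Ogn the SE went from 0.82 to 0.24 (limma adjusted p 0.121), for Aspn from 0.35 to 0.14 and for Dcn from 0.30 to 0.17. Over all genes, 1350 were higher and 1707 lower; normexp gave 2547 higher, array weights 2628 lower, and leaving out 1 array 467 to 956 higher and 390 to 1064 lower. With 1 array left out, calls were 1 to 5 collagens higher, 1 to 2 proteases higher and 0 to 1 lower, 0 to 2 growth factors and receptors lower, and 0 to 3 fibroblast markers higher. The block gave 0 proteases, 0 growth factors and receptors, and 1 fibroblast marker higher. Median scaling moved the median of all genes from -0.04 to -0.15, normexp to 0.08; the share of calls that were higher was 44.2%, 34.3% with median scaling and 50.6% with normexp. The causes of these changes were not tested. The number of arrays, and for Fmod a spot not well above background, limit the precision.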
